A study of Mus musculus with 18 samples.

Results

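Myeloid cells taken from the tissue capsule around an implant were compared with myeloid cells washed from the peritoneal cavity of mice on bead arrays, and the difference between these places at day 14 after implantation was set against the difference at day 7. The place by day interaction was (capsule day 14 minus lavage day 14) minus (capsule day 7 minus lavage day 7), and the arrays were chosen by their labels alone. It used 8 of the 18 arrays of the series, 2 in each of 4 groups. All 4 groups were MacGreen mice of strain C57Bl/6J, 10 to 16 weeks old, that carried sterile objects free in the peritoneal cavity, so none of the 4 was an untreated control. MacGreen mice carry an EGFP transgene under the Csf1r promoter, which is active in cells of the myeloid lineage. Lavage cells were washed out of the cavity, while capsule cells, from different mice, were freed by collagenase, and both were sorted by size, granularity and bright EGFP before RNA was extracted from pooled cells. Nothing in the labels tells if both arrays of a group had their own pool of animals, so the p-values rest on array-to-array spread that could be technical.

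An implanted object that the body cannot remove is first met by inflammatory cells and is then walled off by layers of macrophages, fused giant cells and matrix, which is called the foreign body response. Macrophages in the peritoneal fluid come from a long-lived resident population and from recruited monocytes, and both can divide there. Cells of the capsule and of the fluid differ in contact with the object, in matrix and in exposure to enzyme during isolation. An interaction as used here asks whether that difference between places was itself different at the 2 days.

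Every array carried 46632 probes, and 10806 genes were tested, each from its brightest detected probe. Values are background-corrected, quantile-normalised log2 intensities. Mean raw intensity was 585 to 1053 on the first 2 slides, which held lavage days 0, 2, 4, 7 and 14 and capsule day 7, and 455 to 528 on the other slides. Both capsule day 14 arrays lay alone on slide 3, so capsule day 14 and that slide cannot be told apart. More probes were detected on slide 3 (18738 to 18887) than on slide 1 (16497 to 17559) or slide 2 (16442 to 17487). Slide 4 had 18311 to 19345. Whether detection at capsule day 14 but not in the other compared groups reflects this difference was not tested. Correlation between the 2 arrays of a group was 0.989 to 0.992. All 13 measured macrophage identity genes were detected on both capsule day 14 arrays, and Csf1r itself had no probe named on the array. Of that list, 1 gene passed the interaction test, against 11.5% of all genes.

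The place difference changed between the days for 1240 of 10806 genes (11.5%, limma with Benjamini-Hochberg adjustment at a threshold of 0.05). It was higher at day 14 for 504 genes (4.66%) and lower for 736 (6.81%). With an unadjusted p under 0.05 there were 2779, and 896 of the 1240 had an interaction of at least 2-fold. The median interaction over all genes was 0.03 on the log2 scale, but with median scaling in place of quantiles it was 0.29, and the split turned to 1073 higher and 375 lower. The overall balance of directions therefore depends on the scaling, and list medians are given relative to all genes where scaling is compared.

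Most of these genes differed between places on day 14 alone. The place difference passed only at day 14 in 686 of the 1240 genes and only at day 7 in 274. It passed at both days with the same sign in 178 and with opposite signs in 81, and at neither day in 21. Of the 81, 44 went from higher in the capsule at day 7 to lower at day 14, and 37 went the other way. Among the 178, the largest set was 105 genes that were higher in the capsule at both days and more so at day 14. Across all tested genes, the place difference passed for 24.1% at day 7 and 35.3% at day 14. Read by time instead, the change from day 7 to day 14 passed only in capsule cells for 758 of the 1240 genes and only in lavage cells for 312. Over all tested genes it passed for 23.9% in capsule cells and 13.1% in lavage cells, whatever it did in the other place, so these shares are no like measure. The interaction and its 4 simple differences share arrays and are not independent of each other.

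**Figure D1:**
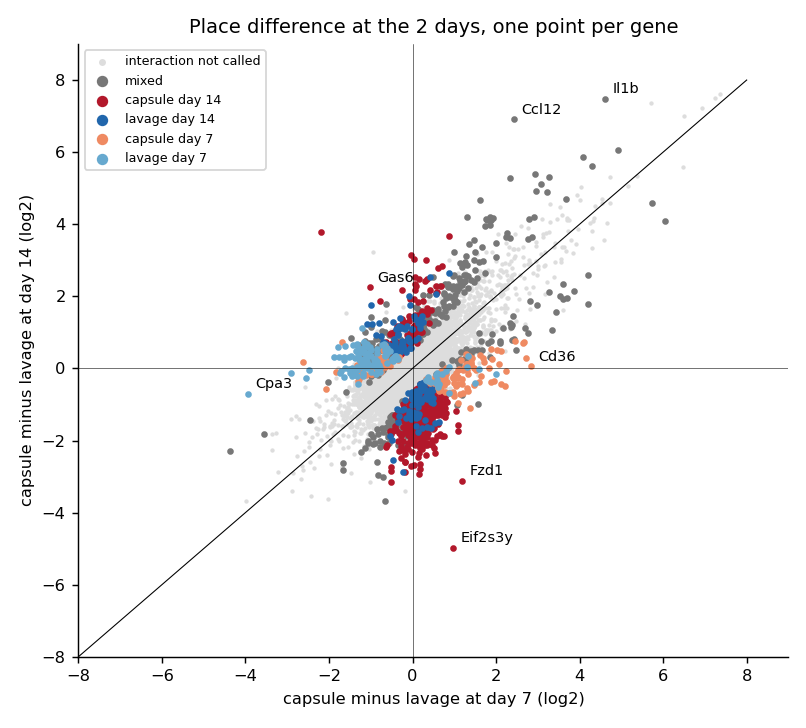
Each point is 1 gene, with the capsule minus lavage difference at day 7 on the x axis and at day 14 on the y axis (log2 scale, means of 2 arrays per group); colours mark the group that stood apart among the 1240 genes with a called interaction, dark grey marks mixed genes, and light grey points did not pass. Genes on the diagonal have the same place difference at both days, Il1b and Ccl12 lie above it, and Cd36, Fzd1 and Eif2s3y lie below it.

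Genes were then sorted by the group that drove the interaction. A gene was given to a group when the other 3 group means lay within a range of at most 0.5 of the absolute interaction, and it was called mixed otherwise. Because the sorting uses the tested values, its counts are a description. Capsule day 14 took 509 of the 1240 genes, lavage day 14 took 147, capsule day 7 took 142, lavage day 7 took 129, and 313 were mixed. With median scaling in place of quantiles, capsule day 14 took 334 genes and lavage day 7 took 332. The lead of capsule day 14 therefore depends on the scaling. Near the limit, Smim8 (0.4997, capsule day 14) and Trim6 (0.4999, lavage day 7) fell just inside and Tk1 (0.5002) and Mcm8 (0.5004) just outside, so the classes grade into each other.

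**Figure D2:**
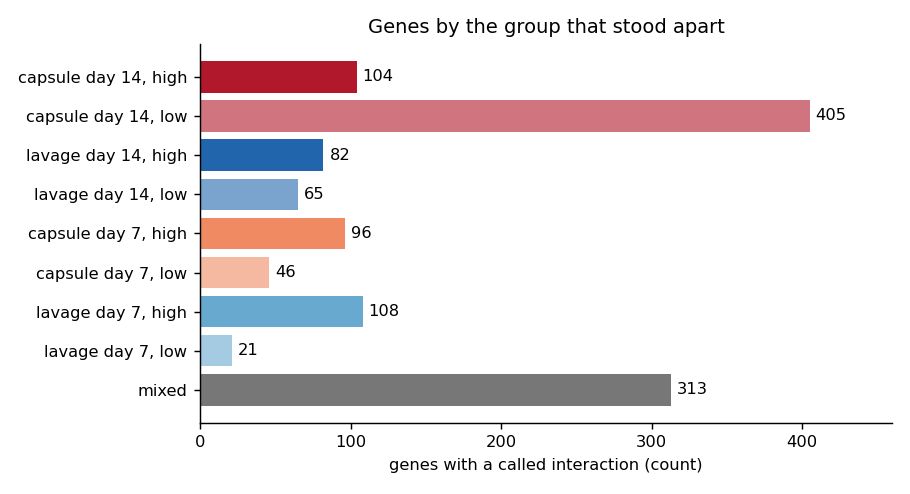
Bars give the number of genes with a called interaction sorted to each group, split by whether that group lay above (high) or below (low) the other 3 groups. Capsule day 14 low is the longest bar with 405 genes and lavage day 7 low the shortest with 21.

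Capsule day 14 was the high group for 104 genes (0.962% of those tested). Gas6, the secreted ligand of the TAM receptors that bridges apoptotic cells to macrophages, had log2 levels of 11.26 and 11.35 on the capsule day 14 arrays. It had 9.11 and 8.98 in lavage at day 14, 9.40 and 9.63 in the capsule at day 7 and 10.63 and 10.40 in lavage at day 7. The capsule day 14 arrays were thus the highest of the 8, and lavage day 7 came next without overlap. Gas6 went from -1.01 to 2.26 in the capsule minus lavage difference, an interaction of 3.27 (SE 0.38, adjusted p = 0.000429). Both simple differences passed, with opposite signs. Its mean level was 10.91 and 11.20 in capsule cells at days 21 and 28.

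Olfml3, which encodes a secreted olfactomedin-like protein, was at 8.04 and 7.88 on the capsule day 14 arrays. In the other 3 groups its levels were 4.85 and 4.99, 5.17 and 5.22 and 5.27 and 5.07, and none of those 6 arrays detected it. It was at least 4.45-fold higher in the capsule than in lavage at day 14, and the fitted interaction was 3.01 (SE 0.27, adjusted p = 7.51e-05). Serpina3n, a secreted inhibitor of serine proteases, was at 8.49 and 8.86 in the capsule at day 14 and at 5.07 and 4.91 in lavage at day 14, a difference of at least 7.29-fold. At day 7 it was at 6.30 and 5.46 in the capsule and 4.96 and 5.03 in lavage, and its interaction was 2.80 (SE 0.37, adjusted p = 0.000697). Sprr2e, a small proline-rich protein gene of epithelia, was unevenly high on the 2 capsule day 14 arrays at 8.81 and 7.08 and undetected on the other 6. Probes of the closely related Sprr2 genes may share signal, so Sprr2e and Sprr2f are uncertain. Trem1, an activating receptor of myeloid cells, was at 10.54 and 10.80 in the capsule at day 14 and at 7.98 and 8.28, 9.24 and 8.67 and 8.41 and 9.37 in the other groups in the same order (interaction 2.48, adjusted p = 0.00326). Of the 104 genes, 86 also had capsule day 21 and day 28 means above the other 3 groups of the comparison. Those later arrays are on slide 4.

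The largest fitted interaction of this kind is named here because of its values. Psmc1, a subunit of the proteasome, had an interaction of 5.97, but its levels were 9.52 and 4.97 on the 2 lavage day 7 arrays, against 9.85 and 9.45 in the capsule at day 14, 5.24 and 6.51 in lavage at day 14 and 4.98 and 5.14 in the capsule at day 7. One lavage day 7 array thus lay with the capsule day 14 arrays and the other with the capsule day 7 arrays. The call (adjusted p = 0.0396) was lost under 7 of the 8 settings that left out 1 array, with values of 3.69 to 6.60, and the value was 8.24 without lavage day 7 replicate 2.

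Capsule day 14 was the low group for 405 genes (3.75% of those tested), the most frequent kind with quantile normalisation. With median scaling 375 genes of all kinds together were lower in the interaction, so this kind was smaller there. Eif2s3y, a Y-linked gene for a translation initiation factor subunit, had log2 levels of 4.80 and 4.86 on the capsule day 14 arrays and was detected on neither. In the other groups it was at 9.83 and 9.78 in lavage at day 14, 10.31 and 11.04 in the capsule at day 7 and 10.09 and 9.33 in lavage at day 7. It was at least 19.5-fold lower in the capsule than in lavage at day 14 and had a fitted interaction of -5.94 (SE 0.51, adjusted p = 6.26e-05). Lavage days 0 and 2 detected it on no array and lavage day 4 on 1, while capsule days 21 and 28 had it at 9.46 and 10.09. Xist, the X-inactivation transcript, was detected on all 18 arrays at 8.33 to 11.36 by its brighter probe. The labels give no sex for the animals pooled on each array. The other Y-linked genes Kdm5d and Uty had interactions of -0.09 and 0.33 that did not pass. Kdm5d was nevertheless lowest in the capsule at day 14, at 6.47 and 6.60. It was at 7.69 and 7.30 in lavage at day 14, 7.33 and 8.13 in the capsule at day 7 and 8.78 and 8.41 in lavage at day 7. Lavage day 0 detected Kdm5d on no array. Uty was dim, at 5.45 to 6.37 on the 8 arrays. With capsule day 21 in place of day 14, the interaction of Eif2s3y was -1.31 and no longer passed.

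Among genes not linked to sex, Fzd1, a receptor for Wnt ligands, was at 5.41 and 5.63 in the capsule at day 14 and at 8.86 and 8.42 in lavage. At day 7 it was at 8.08 and 8.11 in the capsule and 6.72 and 7.10 in lavage, so the place difference went from 1.18 to -3.11. Both passed with opposite signs, and the interaction was -4.30 (SE 0.35, adjusted p = 6.26e-05). Zfp661, a zinc finger gene, was at 7.33 and 6.39 in the capsule at day 14 and between 8.83 and 9.89 on the other 6 arrays (interaction -3.07, SE 0.37, adjusted p = 0.000468). It was back at 9.57 and 9.57 in capsule cells at days 21 and 28, and with capsule day 21 in place of day 14 its interaction was -0.36 and did not pass. Zbtb8os, whose product acts in tRNA ligation, was at 6.10 and 5.01 in the capsule at day 14 against 7.82 to 8.59 elsewhere (interaction -2.97, adjusted p = 0.00307), and its capsule means were 6.43 and 6.50 later.

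Several of the 405 encode known macrophage proteins. Mpeg1, a pore-forming protein of phagocytes, was at 11.34 and 11.30 in the capsule at day 14 and at 12.20 to 13.17 on the other 6 arrays, and its difference turned from 0.73 at day 7 to -1.21 at day 14 (interaction -1.93, adjusted p = 0.000815). Another Mpeg1 probe had an interaction of -0.60 that did not pass. Ctss, a lysosomal protease that trims the invariant chain of MHC class II, went from 0.78 to -0.78 (interaction -1.56, adjusted p = 0.002). Slc39a10, a zinc importer, went from 1.04 to -1.19 (interaction -2.23, adjusted p = 0.000217). For all 3 genes both simple differences passed and their signs were opposite. Clec10a, a galactose-type lectin used as a marker of alternative activation, had an interaction of -1.87 (adjusted p = 0.00243) with capsule day 14 levels of 11.37 and 10.64 against 12.28 to 13.45 elsewhere. From the respiratory chain list of 21 measured genes, 4 were lower in the interaction and of this kind, against 6.81% of all genes that were lower. In the same list 2 were higher and driven by high lavage day 7 levels, against 4.66% of all genes that were higher. The list median was 0.05 relative to all genes and -0.20 with median scaling. The 4 were Atp5a1 (-1.67), Uqcrb (-1.32), Ndufb5 (-1.19) and Cox7a2 (-1.10), but a second probe of Atp5a1 gave 0.61 and did not pass.

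Other kept probes of the same genes gave a measure of how far the kinds held beyond the chosen probe. For the 405 genes with low capsule day 14 levels, 87 of 173 other probes (50.29%) had an interaction of the same sign, and 49 of the 105 detected on all 8 arrays did. For the 108 genes with high lavage day 7 levels, 45 of 54 did (83.33%), and for the 104 with high capsule day 14 levels 27 of 33 did. Over all called genes the share was 368 of 562 (65.48%). Of the 405 low genes, 335 also had capsule day 21 and 28 means below the other 3 groups. What part slide 3 has in these levels was not tested.

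**Figure D3:**
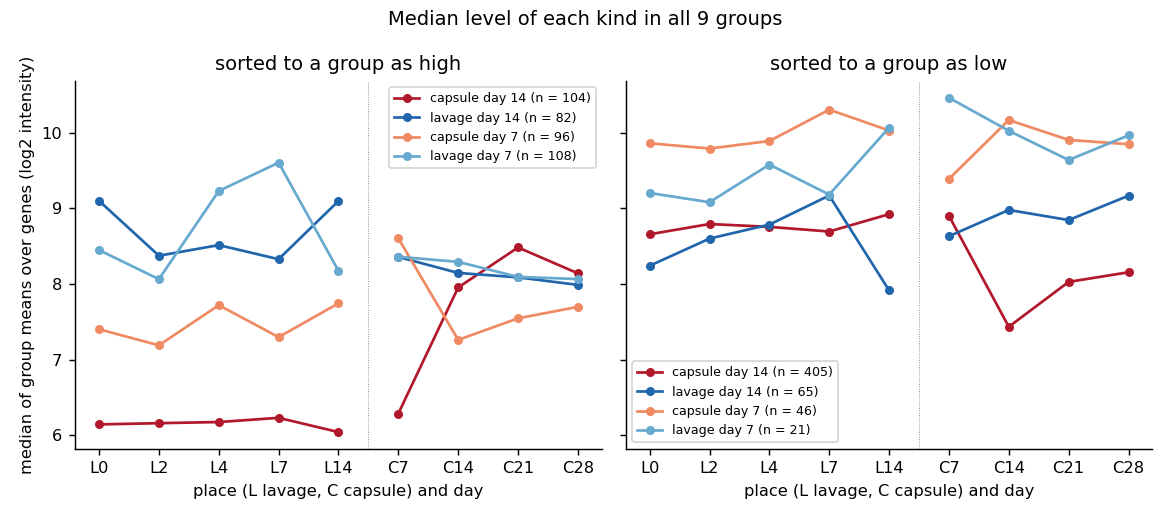
Lines show, for the genes sorted to each group as high (left) or low (right), the median over genes of the group mean (log2 intensity) in lavage cells at days 0 to 14 (L) and capsule cells at days 7 to 28 (C). The median of the genes with high capsule day 14 levels stays near 6 in lavage and capsule day 7 and is 7.95 to 8.48 in capsule cells from day 14 on, and that of the 405 low genes is 7.43 at capsule day 14 and 8.03 and 8.15 at days 21 and 28.

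Capsule day 7 was the high group for 96 genes (0.888%). Of 18 measured lipid handling genes, 1 was higher in the interaction and 3 were lower, against 4.66% and 6.81% of all genes. Of the 3, Fabp5 was of this kind. Cd36, a scavenger receptor that takes up oxidised lipoprotein and fatty acids, was at 7.83 and 8.49 in the capsule at day 7 and at 5.49 and 5.15 in lavage, where it was not detected, at least 5.54-fold apart. At day 14 it was at 5.95 and 5.15 in the capsule and 4.96 and 6.01 in lavage, and these groups overlapped (interaction -2.78, SE 0.51, adjusted p = 0.00379). Fabp5, a fatty acid binding protein, was at 10.79 and 10.86 in the capsule at day 7 against 7.77 to 8.71 on the other 6 arrays (interaction -2.29, SE 0.31, adjusted p = 0.00085). The other lower genes were Lpl and Npc2, the higher one was Trem2, and the list median was -0.22, or -0.25 relative to all genes and -0.16 with median scaling. Cd36 and Fabp5 stood out at day 7 in the capsule and were level between places at day 14, where neither difference passed.

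C3ar1, the receptor for the complement fragment C3a, was at 9.66 and 9.78 in the capsule at day 7 and at 7.65 to 8.23 on the other arrays (interaction -1.96, SE 0.26, adjusted p = 0.000697). Jag1, a ligand of Notch receptors, reversed its place difference from 1.37 at day 7 to -1.09 at day 14 (interaction -2.46, adjusted p = 0.000925), and both passed. Igsf6, an immunoglobulin superfamily gene of myeloid cells, had an interaction of -2.72 (adjusted p = 0.00281), and Bcar3, an adaptor that binds p130Cas, one of -2.54 (adjusted p = 0.00116). For both of these the day 7 difference passed and the day 14 difference did not. Mmp8, the neutrophil collagenase, was detected in the capsule at day 7 alone among the 4 groups, at 6.78 and 6.03 against 4.76 to 5.07 elsewhere. Within each of the 2 shared slides the day 7 differences of Cd36 were 2.34 and 3.34, of Fabp5 2.08 and 2.38, and of C3ar1 1.44 and 1.73.

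Capsule day 7 was the low group for 46 genes (0.426%). Lrg1, a secreted leucine-rich glycoprotein that was listed among resident peritoneal macrophage genes, was at 12.77 and 13.17 in the capsule at day 7 and at 14.69 to 15.37 on the other 6 arrays. Its difference shrank from -2.06 at day 7 to -0.57 at day 14 (interaction 1.48, SE 0.24, adjusted p = 0.00164). Dnm1, a dynamin of vesicle scission, had an interaction of 1.73 (adjusted p = 0.0103), and Nectin2, an adhesion molecule, one of 1.41 (adjusted p = 0.00276). A second Dnm1 probe gave 2.17 and passed, with capsule day 21 in place of day 14 Dnm1 had 1.04 and did not, and a second Nectin2 probe gave 0.05 and did not. Man2a2, a Golgi mannosidase, was at 5.77 and 6.62 in the capsule at day 7 and at 7.96 to 8.26 elsewhere (interaction 1.72, adjusted p = 0.0239). Its capsule levels at days 21 and 28 were again low, 6.16 and 6.34, so with capsule day 21 in place of day 14 the interaction was -0.18. The call on Man2a2 was also lost in 7 of the 8 settings that left out 1 array, with values of 1.30 without capsule day 7 replicate 1 and 1.62 to 1.83 in the other 6, while a second Man2a2 probe gave 2.01 and passed.

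**Figure D4:**
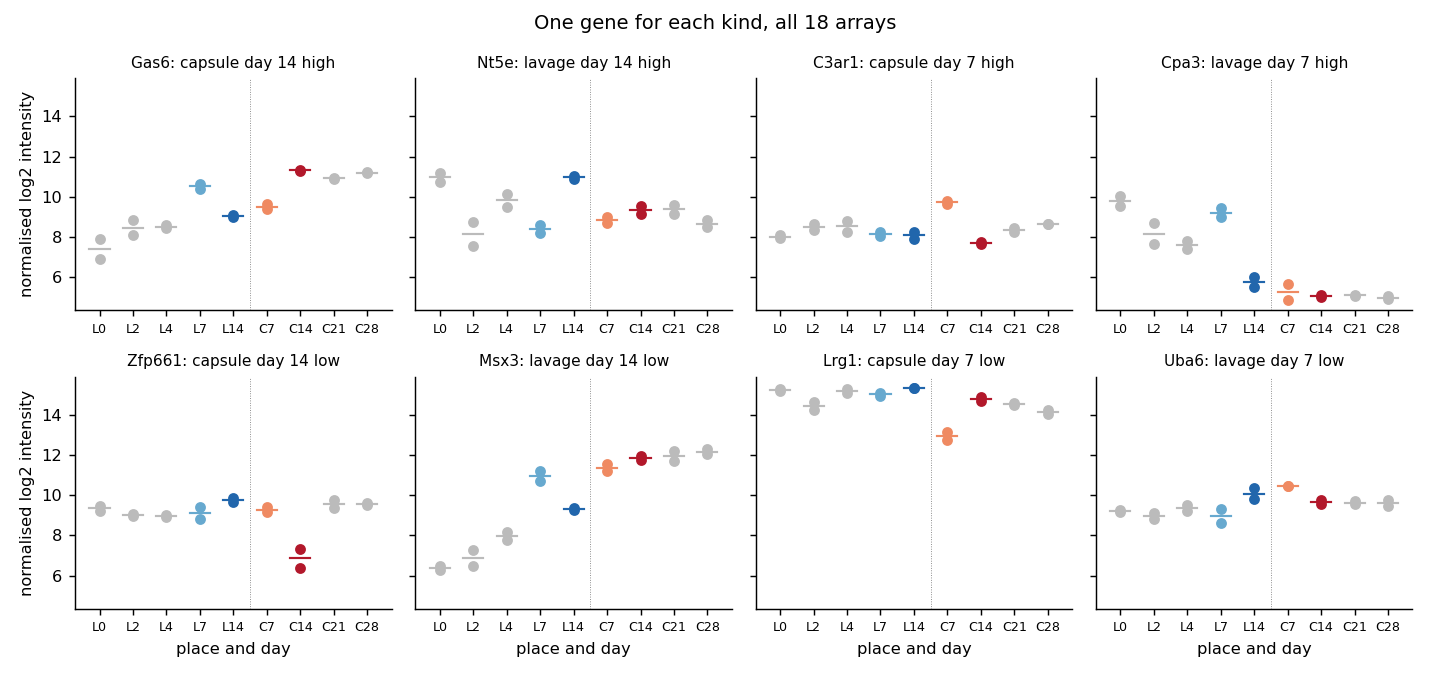
Each panel shows 1 gene on all 18 arrays (points) with the group mean (line), in normalised log2 intensity, for lavage cells (L) at days 0 to 14 and capsule cells (C) at days 7 to 28; the 4 compared groups are coloured and the others are grey. In each panel 1 coloured group lies beyond the other 3, as for Cpa3 at lavage day 7 and Zfp661 at capsule day 14. In the Gas6 panel lavage day 7 also lies apart from the lower groups.

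Lavage day 7 was the high group for 108 genes (0.999%), and mast cell and cell division genes led them. Of the 108, 89 also had lavage day 4 means above the other 3 groups of the comparison. Their median level was 9.23 at lavage day 4 and 9.60 at lavage day 7. Cpa3, the carboxypeptidase of mast cell granules, was at 9.41 and 9.01 in lavage at day 7 and at 5.98 and 5.52 at day 14. In the capsule it was at 4.88 and 5.67 at day 7 and 5.12 and 4.98 at day 14 and was detected on none of those arrays, so lavage was at least 11.4-fold higher at day 7. The interaction was 3.24 (SE 0.45, adjusted p = 0.000925), and a second probe gave 1.94 and passed. Cma1 (2.29), Mcpt4 (2.44) and Tpsb2 (1.88), which encode mast cell proteases, passed as well. Thus 4 of 7 measured mast cell markers were higher in the interaction, against 4.66% of all genes, and none was lower. The list median was 1.88, or 1.85 relative to all genes, 1.91 with median scaling and 3.21 in the authors' values, so its size depends on the processing of these dim probes. Cma2, another chymase, had an interaction of 2.78 (adjusted p = 0.000483), and chymase probes may share signal. As levels in the capsule at day 7 were below detection, these fitted interactions are no bounds, and lavage exceeded the capsule at day 7 by at least 3.96-fold for Cma1, 3.31-fold for Mcpt4, 2.39-fold for Tpsb2 and 5.04-fold for Cma2. The other 3 mast cell markers did not pass: Kit at 0.39, Fcer1a at 0.62 and Hdc at -0.47.

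None of the 7 mast cell markers was detected on all 8 arrays, and at lavage day 7 all 7 were. A further 3 listed markers, Tpsab1, Ms4a2 and Mrgprb1, had probes on the array that were not kept. A gene was kept if any group detected it on both arrays. That filter favours groups with high levels, so the share of markers that passed and the count detected at lavage day 7 are descriptions. Their summed level on the linear scale was 1249 to 1505 in lavage at day 7, 768 to 919 in lavage at day 14, 280 to 375 in the capsule at day 7 and 456 to 512 in the capsule at day 14. Hdc, histidine decarboxylase, ran against the proteases, since it rose in lavage from 6.81 and 7.23 at day 7 to 9.30 and 9.05 at day 14 and carried most of the day 14 sum. Without Hdc the sums were 1099 to 1393, 239 to 287, 232.5 to 258 and 236 to 248 in the same order. In lavage cells of mice without implants (day 0), Cpa3 was at 9.78 and Mcpt4 at 8.49, above their day 7 means. In such sorted bulk samples fewer cells of a type and less RNA per cell cannot be told apart.

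The cell cycle list was the list with the most called genes. Of 17 measured genes, 11 were higher in the interaction and 1 was lower, against 4.66% and 6.81% of all genes. The list median was 1.73. Relative to all genes the median was 1.69, 1.71 with median scaling and 1.74 in the authors' values. Lavage day 7 drove 6 of the 12, and 6 were mixed. Cdc20, the activator of the anaphase-promoting complex, was at 9.87 and 9.70 in lavage at day 7, 7.68 and 7.67 in lavage at day 14, 8.22 and 7.78 in the capsule at day 7 and 8.37 and 8.17 in the capsule at day 14. Only the lavage day 7 arrays stood apart, and the interaction was 2.38 (SE 0.36, adjusted p = 0.00113), with 2 other probes at 2.28 and 1.52 that passed. Birc5, which encodes survivin, had an interaction of 1.91 (adjusted p = 0.00188), and Mcm2, a helicase subunit of replication licensing, one of 1.44 (adjusted p = 0.00197). In both of these the capsule was lower than lavage at day 7 and higher at day 14, and all 4 differences passed.

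In lavage cells 16 of the 17 fell from day 7 to day 14, with a median change of -1.90, against 6.82% of all genes that fell. In capsule cells 2 fell, against 12.1% of all genes, and the median change was -0.32. The capsule was lower than lavage at day 7 for 13 of the 17, against 12.5% of all genes. The level of the list's median gene on each array was 10.46 and 10.58 at lavage day 7, 8.53 and 8.81 at lavage day 14, 9.37 and 9.49 at capsule day 7 and 9.05 and 9.25 at capsule day 14. At lavage day 4 this level was already 9.84 and 10.35. Pcna, the sliding clamp of DNA polymerase, was the 1 lower gene at -1.06 (adjusted p = 0.00802), with 9.77 and 9.58 in the capsule at day 7, 8.01 and 8.20 there at day 14, 9.32 and 9.42 in lavage at day 7 and 8.91 and 8.82 in lavage at day 14. With capsule day 21 in place of day 14, 7 members were higher in place of 11, and Top2a (0.57) and Cdk1 (0.94) did not. Other genes of division appeared elsewhere in the sort. Kif2c, a mitotic kinesin, and Ccne2, cyclin E2, were sorted to lavage day 14 as low, as described below.

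The promoters of 3 of the 6 members driven by lavage day 7 are shown because genes of division commonly carry a CCAAT box or a cell cycle homology region in their promoters. They were chosen after their values and motifs were seen. Top2a, DNA topoisomerase II alpha, had an interaction of 1.75 (SE 0.33, adjusted p = 0.00443) and Cdk1, the mitotic kinase, one of 1.77 (SE 0.33, adjusted p = 0.00399). The sequences are from RefSeq, build GRCm38.p6, minus strand, from 250 bases before to 50 bases after the start of the gene, at chr4:118437294-118437593 for Cdc20, chr11:99024140-99024439 for Top2a and chr10:69352863-69353162 for Cdk1. Capitals mark matches to CCAAT and TTTGAA on either strand, read as ATTGG and TTCAAA on the other.
Cdc20: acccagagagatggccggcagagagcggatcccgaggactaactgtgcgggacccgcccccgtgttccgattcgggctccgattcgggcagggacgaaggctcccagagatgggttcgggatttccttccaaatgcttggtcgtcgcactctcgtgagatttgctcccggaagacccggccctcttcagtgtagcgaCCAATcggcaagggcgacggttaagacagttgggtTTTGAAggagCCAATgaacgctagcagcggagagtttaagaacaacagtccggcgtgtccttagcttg
Top2a: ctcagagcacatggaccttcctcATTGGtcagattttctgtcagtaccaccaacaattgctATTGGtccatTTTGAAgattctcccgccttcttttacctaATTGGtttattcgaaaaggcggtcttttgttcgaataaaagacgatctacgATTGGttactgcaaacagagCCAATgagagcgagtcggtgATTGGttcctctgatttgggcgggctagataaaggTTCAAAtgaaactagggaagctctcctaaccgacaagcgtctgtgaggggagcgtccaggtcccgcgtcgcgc
Cdk1: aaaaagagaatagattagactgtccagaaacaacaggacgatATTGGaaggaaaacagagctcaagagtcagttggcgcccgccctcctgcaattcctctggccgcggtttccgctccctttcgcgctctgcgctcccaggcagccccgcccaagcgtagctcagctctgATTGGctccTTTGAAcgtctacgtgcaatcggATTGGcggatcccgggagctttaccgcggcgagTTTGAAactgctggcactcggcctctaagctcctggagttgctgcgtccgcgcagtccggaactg
Cdc20 held 2 CCAAT and 1 TTTGAA matches, Top2a held 6 and 2, and Cdk1 held 3 and 2. Of the 16 list members with a promoter in the table, 13 (81.2%) held CCAAT and 8 (50%) held TTTGAA. Among all 27025 genes with a promoter the shares were 41.1% and 20.2%. A match is a description of letters in this window and no measure of a factor's binding.

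**Figure D5:**
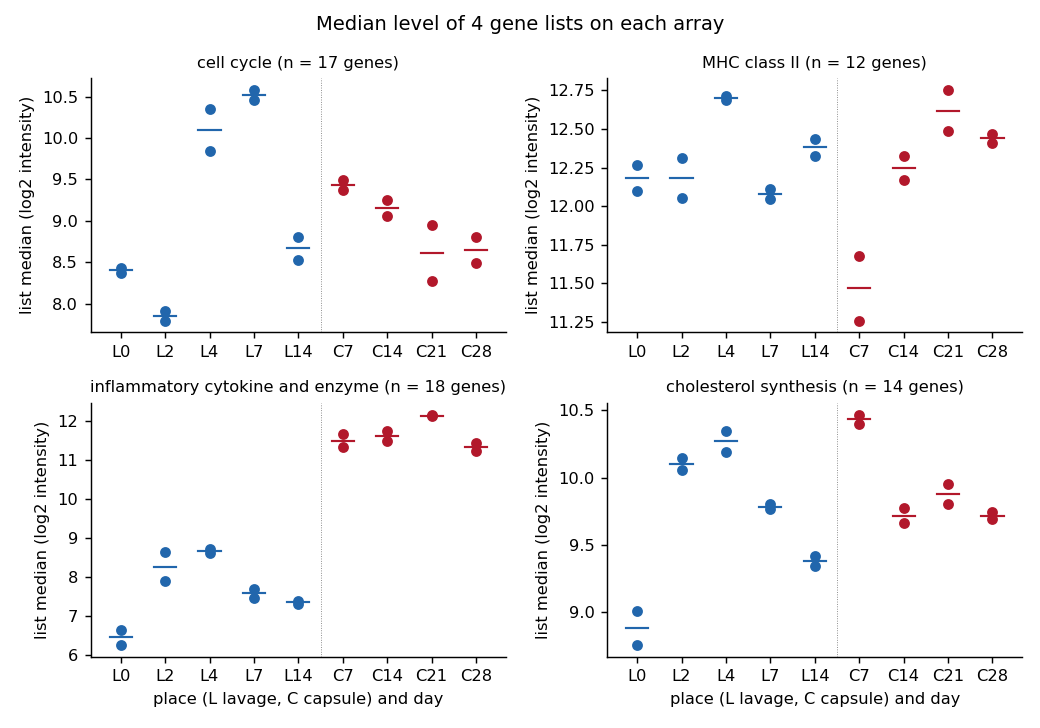
Points are single arrays and lines are group means of the median log2 level over each list's measured genes, for lavage cells (blue, L) at days 0 to 14 and capsule cells (red, C) at days 7 to 28. The cell cycle median is highest at lavage day 7 (10.46 and 10.58), the MHC class II median lowest at capsule day 7, the inflammatory median is above 11 on every capsule array and below 9 on every lavage array, and the cholesterol synthesis median is highest at capsule day 7.

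Lavage day 7 was the low group for 21 genes (0.194%). Uba6, a ubiquitin-activating enzyme, was at 9.32 and 8.64 in lavage at day 7 and at 9.55 to 10.49 on the other 6 arrays (interaction -1.89, SE 0.32, adjusted p = 0.0026). Tmem267 had an interaction of -2.16 (adjusted p = 0.00353), Sntb2, a syntrophin, one of -1.54 (adjusted p = 0.00374) and Wnk2, a protein kinase, one of -1.61 (adjusted p = 0.0269). A second Sntb2 probe gave -0.08, and the call on Wnk2 was lost without capsule day 14 replicate 2 (-1.14), lavage day 14 replicate 2 (-1.31), lavage day 7 replicate 2 (-1.35) or capsule day 7 replicate 2 (-1.49). For this smallest kind, 10 of the 21 genes lay beyond the other 3 groups in capsule cells at both days 21 and 28.

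Lavage day 14 was the high group for 82 genes (0.759%). Nt5e, which encodes the adenosine-forming ectonucleotidase CD73, was at 10.88 and 11.05 in lavage at day 14 and at 8.17 to 9.51 on the other 6 arrays (interaction -2.10, SE 0.48, adjusted p = 0.0126). Cfb, complement factor B, was at 12.17 and 12.26 in lavage at day 14, 9.73 and 9.60 in the capsule at day 14, 10.19 and 8.95 in the capsule at day 7 and 10.14 and 9.92 in lavage at day 7 (interaction -2.09, adjusted p = 0.0153). Both were as high or higher in unimplanted lavage, at 10.96 for Nt5e and 13.11 for Cfb. The median level of the 82 genes was likewise 9.10 in lavage at day 14 and 9.10 at day 0, and 8.33 at lavage day 7. The call on Nt5e was lost without capsule day 14 replicate 2 (-1.91), capsule day 7 replicate 2 (-1.93) or lavage day 7 replicate 1 (-1.89), and that on Cfb without capsule day 14 replicate 2 (-2.02) or lavage day 7 replicate 2 (-1.98). Sprr2f was at 8.57 and 8.59 in lavage at day 14 and 6.21 and 5.23 in the capsule at day 14, and was undetected in both groups at day 7 (interaction -2.63, adjusted p = 0.000468). Sfxn4, a mitochondrial sideroflexin, had an interaction of -2.10 (adjusted p = 0.0412), but another probe gave 0.24, and its call was lost in 5 of the 8 settings that left out 1 array (-1.66 to -2.14).

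Lavage day 14 was the low group for 65 genes (0.602%). Kif2c was at 7.60 and 7.13 in lavage at day 14, 9.77 and 9.52 in lavage at day 7, 8.65 and 8.54 in the capsule at day 14 and 8.71 and 8.42 in the capsule at day 7 (interaction 2.31, SE 0.29, adjusted p = 0.000503). Its capsule levels were close at both days and lay between those of the lavage groups, so the place difference reversed from -1.08 to 1.23. Ccne2 was detected in the other 3 groups and not at lavage day 14 (5.24 and 5.52), with an interaction of 2.21 (adjusted p = 0.0108). Shcbp1, a gene of dividing cells, had an interaction of 2.74 (adjusted p = 0.00101), with 0.64 and no pass at a second probe. Msx3, a homeobox gene, was at 9.36 and 9.29 in lavage at day 14 and at 10.73 to 11.97 elsewhere (interaction 2.14, adjusted p = 0.00276). Mrc1, the mannose receptor, was at 13.50 and 14.04 in lavage at day 14 and at 14.85 to 15.14 on the other 6 arrays (interaction 1.29, adjusted p = 0.012), a call lost without lavage day 14 replicate 1 (1.02).

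In the 313 mixed genes (2.90%), the day change passed only in the capsule for 151, only in lavage for 94, in both for 46 and in neither for 22. For 166 the place difference passed at both days with the same sign, and it was larger at day 14 in 126 of these and smaller in 40. Il1b, the cytokine interleukin 1 beta, was at 15.17 and 15.10 in the capsule at day 14 and 7.71 and 7.60 in lavage. At day 7 it was at 14.22 and 13.65 in the capsule and 9.02 and 9.63 in lavage. It rose in the capsule by 1.2 and fell in lavage by 1.67, so the gap widened from 4.61 to 7.48 (interaction 2.87, SE 0.36, adjusted p = 0.000538). Ccl12, a chemokine that attracts monocytes, was at 12.10 and 11.78 in the capsule at day 14 and 5.06 and 4.98 in lavage, where it was undetected, at least 70.2-fold apart. At day 7 its levels were 10.28 and 11.39 in the capsule and 9.40 and 7.43 in lavage, and it had the largest interaction of the mixed kind at 4.5 (SE 0.66, adjusted p = 0.000986). A second Ccl12 probe gave 3.34 and passed.

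Cox6a2, the heart and muscle form of a cytochrome oxidase subunit, was at 11.86 and 11.69 in the capsule at day 14 and 9.17 and 9.17 at day 7, and at 7.42 and 6.81 and 7.58 and 7.54 in lavage. It rose in the capsule alone (interaction 3.05, SE 0.43, adjusted p = 0.000942) and was at 12.61 and 12.74 in capsule cells at days 21 and 28. Glul, glutamine synthetase, was at 6.74 and 5.85 in the capsule at day 14 and 8.59 and 8.0 at day 7, and at 10.19 and 9.75 and 8.82 and 9.08 in lavage at those days. It moved in opposite directions in the 2 places (interaction -3.03, SE 0.40, adjusted p = 0.000788).

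The inflammatory cytokine list showed a large place difference at both days, and most members did not pass the interaction test. Of 18 measured genes, 16 were higher in the capsule at day 7 and 17 at day 14, against 11.6% and 16.8% of all genes. The medians were 3.74 and 3.89. In the interaction 5 were higher, against 4.66% of all genes, and none was lower (6 higher with median scaling and 4 in the authors' values). In lavage, 7 of the 18 were detected on no array at day 7 and 8 on none at day 14. For these the fitted interaction cannot show how far the gap changed. The list's interaction median was 0.21, or 0.18 relative to all genes. The 5 were Il1b, Osm (2.10, adjusted p = 0.00178), Tnfsf9 (1.79, adjusted p = 0.00869), Csf3 (2.25) and Lif (1.31), which encode oncostatin M, the 4-1BB ligand, the neutrophil colony factor and leukaemia inhibitory factor. All 5 were mixed, with larger fitted capsule excess at day 14. Csf3 and Lif were undetected in lavage at both days. A second Csf3 probe gave 0.17 and did not pass, and the call on Lif was lost in the authors' values (1.11). Tnf was at 12.17 and 12.54 in the capsule at day 14 and 12.22 and 12.62 at day 7. In lavage it was undetected at both days (4.73 to 5.48), and its interaction of 0.26 did not pass. Of 21 chemokine genes, 2 were higher in the interaction, against 4.66% of all genes, namely Ccl12 and Ccl8 (2.33, adjusted p = 0.024). None was lower, and the list median relative to all genes was 0.02 and -0.23 with median scaling. The call on Ccl8 was lost in 6 of the 8 settings that left out 1 array, with values of 1.90 to 2.46. Cxcl1, at 14.75 to 15.40 in the capsule and 7.58 to 7.93 in lavage, did not pass (0.25).

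For antigen presentation, 5 of 12 measured genes of the MHC class II list were higher in the interaction, against 4.66% of all genes. None was lower. The list also holds Cd80, Cd86 and Cd40, which encode costimulatory molecules, and none of them passed. The median was 0.89, or 0.86 relative to all genes and 0.79 with median scaling. At day 7, 6 of the 12 were lower in the capsule, against 12.5% of all genes. At day 14, 3 were lower and 2 higher, against 18.4% and 16.8%. H2-Aa, the partner chain of H2-Ab1, did not pass. At day 14 its levels were 13.63 and 13.52 in the capsule and 14.42 and 14.12 in lavage. At day 7 they were 14.26 and 13.84 in the capsule and 14.20 and 13.91 in lavage. Cd74 did not pass either. H2-DMa, a chain of the peptide exchange factor, was at 13.31 and 13.23 in the capsule at day 14, 12.59 and 12.33 in lavage at day 14, 12.91 and 12.62 in the capsule at day 7 and 13.17 and 13.23 in lavage at day 7. The day 14 lavage arrays were the lowest, and the interaction was 1.25 (adjusted p = 0.00414). Its partner H2-DMb1 reversed from -0.74 to 0.65 (interaction 1.39, adjusted p = 0.00906). H2-Eb1 had 1.05 (adjusted p = 0.0106), lost without capsule day 7 replicate 2 (0.91), and Ciita, the regulator of the class II genes, had 1.88 (adjusted p = 0.0116), with 0.08 and no pass at a second probe. The call on Ciita was lost without capsule day 14 replicate 2 (1.66) or lavage day 7 replicate 2 (1.46). H2-Ab1 had the smallest interaction of the 5 at 0.74 (adjusted p = 0.0441), and a second probe gave 1.18 and passed. The call on H2-Ab1 was lost with median scaling (0.66), in the authors' values (0.73), with the compared arrays alone and with slide as a random block. It was also lost without capsule day 7 replicate 2 (0.47) and in most other settings that left out 1 array (0.66 to 0.81). The 5 genes spread over 3 driving groups, 3 of them lavage day 7, so the list had no common one.

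The cholesterol synthesis list went the other way. Of 14 measured genes, 10 were higher in the capsule at day 7 and 5 at day 14, against 11.6% and 16.8% of all genes, and 9 fell in the capsule from day 7 to day 14, against 12.1%. In the interaction 3 were lower, against 6.81% of all genes, and none was higher. The list median was -0.53, or -0.57 relative to all genes and -0.52 with median scaling, where 1 gene was lower in place of 3. Idi1, an isomerase of the isoprenoid pathway, was detected in the capsule at day 7 alone among the 4 groups (6.49 and 6.06), though also in lavage at day 4 (interaction -1.2, adjusted p = 0.0138). Stard4, a sterol carrier, had -0.85 (adjusted p = 0.0115) and Cyp51, lanosterol demethylase, -0.86 (adjusted p = 0.0427). These 3 calls were fragile: that on Idi1 was lost without capsule day 7 replicate 1 (-0.99) or lavage day 7 replicate 2 (-1.08), that on Stard4 without capsule day 7 replicate 2 (-0.69), and that on Cyp51 in 7 of the 8 such settings (-0.67 to -1.0). Second probes of Stard4 (-0.65) and Cyp51 (-0.61) did not pass.

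Of 17 genes of giant cells and osteoclasts, 2 were higher in the interaction and 4 lower, against 4.66% and 6.81% of all genes. With median scaling 4 were higher and 2 lower, and in the authors' values 1 went each way. The list median of 0.03 equalled that of all genes. Dcstamp, required for macrophage fusion in mice, was at 9.04 and 9.17 in the capsule at day 7 and 7.51 and 7.57 at day 14, and was undetected in lavage at both days (5.43 and 5.57 and 5.39 and 5.04). The capsule excess was at least 10.7-fold at day 7 and at least 3.33-fold at day 14 (interaction -1.28, adjusted p = 0.00634), a call lost in the authors' values (-0.94). Its relative Ocstamp was at 12.30 and 12.37 in the capsule at day 7 and 8.58 and 10.28 at day 14 (interaction -1.96), and a second probe gave -1.84 and passed. The 2 capsule day 14 arrays disagreed on Ocstamp by more than 1 on the log2 scale, and the call was lost in 5 of the 8 settings that left out 1 array, with -1.12 without replicate 2 there and -1.64 to -2.0 in the other 4. The other lower genes were Tyrobp and Cd9, and the higher ones Trem2 and Gpnmb. Trem2, a lipid-sensing receptor, moved the other way from its adaptor (1.10, adjusted p = 0.00611), as Tyrobp, through which it signals, had -0.98 (adjusted p = 0.0106), lost with median scaling (-0.83). Clec7a, the beta-glucan receptor dectin 1, kept a capsule excess that shrank from 2.09 to 0.75 (interaction -1.34, adjusted p = 0.00399), and Lpl, lipoprotein lipase, did so from 2.35 to 1.16 (interaction -1.19, adjusted p = 0.00639). Plau, the urokinase plasminogen activator, widened from 2.34 to 3.62 (interaction 1.28, adjusted p = 0.00208), as lavage fell by more than the capsule, but with capsule day 21 in place of day 14 it was 0.62 and did not pass. Pdcd1lg2, the ligand PD-L2 of the receptor PD-1, also widened, from 0.77 to 2.34 (interaction 1.57, adjusted p = 0.00353).

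Resident peritoneal macrophage genes changed with time in both places and hardly in the interaction. Of 19 measured genes, 13 rose from day 7 to day 14 in the capsule and 11 in lavage (11.8% and 6.28% of all genes rose). None fell in either place. In the interaction 1 was higher, Lrg1, against 4.66% of all genes. The list's median change was 1.07 in the capsule and 0.76 in lavage, and its interaction median was 0.41, or 0.38 relative to all genes and 0.32 with median scaling, where 2 genes were higher. Gata6, the transcription factor that defines these cells, was at 12.08 ± 0.12 (mean and SD, n = 2) in the capsule at day 14, and on single arrays at 10.93 and 11.40 at day 7, 13.35 and 13.48 in lavage at day 14 and 12.04 and 12.11 at day 7, so it was lower in the capsule at both days and rose with time in both places. Its interaction of -0.42 did not pass. Tgfb2 was at 9.41 and 9.48 in the capsule at day 14 and 5.76 and 5.77 at day 7, and its interaction was -0.04, but a second Tgfb2 probe gave -2.09 and passed, so the probes of this gene disagree. No gene of the interferon response list of 18 passed in either direction, nor did any of 14 iron and heme genes, against 11.5% of all genes.

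Markers of cells other than macrophages were examined for each place and day. Of 10 measured fibroblast and matrix genes, 2 were higher in the interaction, against 4.66% of all genes, and none was lower. The 2 were Dcn and Col6a1 (1.84). The call on Col6a1 was lost in 8 of 21 settings, and a second Col6a1 probe gave 0.62 and did not pass. The summed level of the 10 was 2307 to 2747 in the capsule at day 14 and 710 to 1122 in the capsule at day 7. It was 410 to 468 in lavage at day 14 and 455 to 479 in lavage at day 7. Dcn alone made up 1575 to 1631 of the capsule day 14 sum. Without Dcn the sums were 732 to 1116, 480 to 760, 376 to 418 and 390 to 429 in the same order. A further 8 listed genes were not measured, among them Col1a2, Col3a1, Lum, Postn and Sparc, whose probes were not kept. The list median was 0.66, or 0.62 relative to all genes, 0.38 with median scaling and 1.13 in the authors' values. At lavage day 14, 8 of the 10 were detected on no array, and at capsule day 14 none was. More probes in all were detected on the capsule day 14 arrays, as given above. Dcn, the matrix proteoglycan decorin, was at 10.62 and 10.67 in the capsule at day 14, 8.5 and 7.85 in the capsule at day 7 and 5.09 and 5.66 and 5.64 and 6.03 in lavage (interaction 2.93, SE 0.42, adjusted p = 0.000942). Of 3 other Dcn probes, 2 passed with 2.36 and 1.45 and 1 gave -0.33. The part of these cells in the capsule day 14 genes was not tested. Of 12 neutrophil markers, Trem1 was higher and Mmp8 lower, and of 8 endothelial markers Emcn was higher (1.2) and Egfl7 lower (-1.44). Of 5 mesothelial markers Wt1 was higher (0.98), of 5 smooth muscle markers Tpm1 was lower (-0.95), and of 9 monocyte markers Cx3cr1 was higher (1.83). Over all genes 4.66% were higher and 6.81% lower. The call on Tpm1 was lost in 11 of 22 settings. Of 21 settings, Wt1 lost it in 10, Egfl7 in 7 and Emcn in 5. A second Egfl7 probe gave -0.48 and did not pass. None passed of 9 T and NK, 9 B, 10 dendritic, 3 eosinophil, 3 erythroid and 3 platelet markers, against 11.5% of all genes, and these lists are short. Of 18 immediate early genes of tissue dissociation, 16 were higher in the capsule at day 7 and 17 at day 14, against 11.6% and 16.8% of all genes. In the interaction 2 were higher, Ier3 (0.77) and Rgs1 (1.15), against 4.66% of all genes, and the list median was 0.58. It was 0.55 relative to all genes and 0.48 with median scaling, where 5 were higher, and 0.48 in the authors' values, where 1 was. Both calls were lost in most settings that left out 1 array, with values of 0.62 to 0.83 for Ier3 and 0.82 to 1.27 for Rgs1, while a second Ier3 probe gave 1.75 and passed. Collagenase was used for capsule cells at both days and for no lavage cells.

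Of the 91 genes named by the rule, 57 kept their call in all the settings tried for them. Cyp51, Rgs1, Rpl5 and Tpm1 kept it in at most 11 of 22 settings, and with capsule day 21 in place of day 14, 79 of the 91 did and 1 changed sign. Values within a slide do not exist for capsule day 14.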

How the data were processed

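RNA from pooled, EGFP-bright sorted cells was labelled with biotin and hybridised to Illumina mouse bead arrays, per the labels' protocols. The deposited scanner table gave, per the file headers, a mean bead intensity and a detection p-value for every probe, and the authors' processed table gave log2 values; BeadStudio and R 2.15.3 are named in the submitters' processing notes, and no source used here states the background correction behind the authors' log2 values.

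Intensities were background-corrected and quantile-normalised with neqc of limma 3.58.1 in R 4.3.3 (offset 16, controls inferred from detection p-values). Probes were kept if some group had a detection p of at most 0.05 on both of its arrays, and a gene was represented by its brightest kept probe with 1 gene symbol. Of 46632 probes, 20985 were kept, and 29976 had 1 symbol, 10 several and 16646 none. One mean per group was fitted over all 18 arrays (9 residual degrees of freedom), with moderated tests (eBayes) and Benjamini-Hochberg adjustment over all 10806 genes in each contrast. A bound ("at least N-fold") sets the bright group's mean against, on each array of the dim group, the higher of the lowest signal among detected probes and the probe's own signal. Scripts were tested on simulated data. The number of arrays, 2 per group, limits the precision.

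Named genes were the 4 with the largest absolute interaction in each kind and up to 3 called members of each list with the smallest p. For low kinds, the 4 had to be detected on both arrays of the other 3 groups. Outside the mixed kind, their driving arrays had to lie beyond the other 6. Names that are not gene symbols were left out of the 4. Top2a, Cdk1, Pcna, Psmc1, Ciita, Csf3, Lif, Ocstamp, Tnf, Cxcl1, Gata6, Tgfb2 and Ndufb5 were added after their values were seen. So were Kit, Fcer1a, Hdc, Cd9, Gpnmb, Npc2, H2-Ab1, H2-Aa, Cd74, Cd80, Cd86 and Cd40. The comparison, its gene lists and the naming rule were chosen with earlier results of these data known.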

Additional observations from a re-analysis of the deposited data

Results flagged for a closer look

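The place effect differed between days 7 and 14, by the interaction test of limma with Benjamini-Hochberg adjustment, for 1240 genes and for each of the following named genes, with interactions on the log2 scale. Where capsule day 14 was the high group the values were 3.27 for Gas6, 3.18 for Sprr2e, 3.01 for Olfml3 and 2.80 for Serpina3n. Where it was the low group they were -5.94 for Eif2s3y, -4.30 for Fzd1, -3.07 for Zfp661, -2.97 for Zbtb8os, -2.23 for Slc39a10, -1.93 for Mpeg1 and -1.56 for Ctss.

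With capsule day 7 as the high group they were -2.78 for Cd36, -2.72 for Igsf6, -2.54 for Bcar3, -2.46 for Jag1 and -1.76 for Dnajb4, a heat shock cochaperone whose second probe gave -0.11. With capsule day 7 low they were 1.73 for Dnm1, 1.72 for Man2a2, 1.48 for Lrg1 and 1.41 for Nectin2.

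With lavage day 7 as the high group they were 3.24 for Cpa3, 2.78 for Cma2, 2.44 for Mcpt4, 2.38 for Cdc20 and 1.39 for H2-DMb1, and with it low they were -2.16 for Tmem267, -1.89 for Uba6, -1.61 for Wnk2 and -1.54 for Sntb2. With lavage day 14 high they were -2.63 for Sprr2f, -2.10 for Nt5e, -2.10 for Sfxn4 and -2.09 for Cfb, and with it low they were 2.74 for Shcbp1, 2.31 for Kif2c, 2.21 for Ccne2 and 2.14 for Msx3. Among mixed genes they were 4.5 for Ccl12, 3.05 for Cox6a2, -3.03 for Glul, 2.93 for Dcn, 1.91 for Birc5 and 1.44 for Mcm2. Groups of 2 arrays were too small for a check of single arrays far from the rest.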

How the results depend on the processing

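The following counts moved by over 1.5 times from those reported. Median scaling gave 3615 genes between lavage days, 334 driven by capsule day 14, 235 by lavage day 14 and 332 by lavage day 7, with 2 giant cell genes lower and 1 cholesterol gene. The compared arrays alone gave 790 interactions, 886 between lavage days, 80, 87 and 76 driven by lavage day 14, capsule day 7 and lavage day 7, 196 mixed, 2 MHC class II genes and 1 cholesterol gene. Requiring at least a 2-fold change gave 1079 place differences at day 7 and 1594 at day 14, 1007 capsule and 532 lavage day changes, 88 driven by lavage day 14, 2 giant cell genes and 1 cholesterol gene. With capsule day 21 in place of capsule day 14, capsule day 7 drove 215, 493 were mixed, 7 cell cycle genes and 6 cholesterol genes passed, and Man2a2 was at -0.18. A range limit of 0.33 gave 312 genes driven by capsule day 14, 44 by lavage day 14, 65 by capsule day 7, 54 by lavage day 7 and 765 mixed. No background correction gave 5 cholesterol genes, the authors' values 1 giant cell gene, and no detection filter 2. Probes detected on all 8 arrays gave 2 inflammatory, 0 mast cell and 2 giant cell genes, as fewer genes were then tested. Other causes were not tested.

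Leaving out 1 array gave 752 to 1208 interactions, 1693 to 2658 place differences at day 7 and 2647 to 3770 at day 14, 1503 to 2623 capsule and 677 to 1406 lavage day changes, 325 to 604 genes driven by capsule day 14, 74 to 220 by lavage day 14, 85 to 140 by capsule day 7, 71 to 121 by lavage day 7 and 166 to 300 mixed. The list counts ranged from 8 to 11 (cell cycle), 3 to 6 (MHC class II), 5 to 6 (inflammatory), 4 to 4 (mast cell), 2 to 5 (giant cell) and 1 to 3 (cholesterol). The lone array left in a group was assumed to vary like the others.

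Replicate numbers did not pair the 4 groups: the 6 correlations of deviations were -0.11 to 0.13. With the number as a replicate block there were 1201 interactions and 1319 lavage day changes, and on slides 1 and 2 alone 2441 place differences at day 7 and 1114 lavage day changes (2539 and 1204 without the block, chosen after seeing the data). Of 91 named genes, 86 kept their call under the block, 82 under median scaling, 75 in the authors' values and 73 to 80 with 1 array left out. Slide as a random block kept 91. A fixed slide term could not be fitted because capsule day 14 is alone on its slide. For dim probes near background, as those of the mast cell genes, fitted interactions are no bounds.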
